A study of Mus musculus with 14 samples.

Results

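Thymus RNA from mice given estradiol for 6 days was set against thymus RNA from mice given genistein for 6 days, as 2 arrays against 2, which are 4 of the 14 arrays in the series. The 4 arrays were taken by their labels, treatment and day, and the comparison was chosen with earlier results of these data known. All mice were female C57BL/6, ovariectomised at 26 days of age, put on a purified phytoestrogen-free diet (AIN-93G) 2 days later and first treated at 30 days of age. The estradiol mice received 125 ng of 17 beta-estradiol a day under the skin in 0.02 ml of corn oil. The genistein mice ate the same purified diet with 1500 ppm of genistein and no injection is given for them in the labels. Each array held RNA pooled from 3 thymuses, and the pools of a group came from separate mice. The remaining treated arrays, at days 2 and 3 of the same treatments, were used to estimate the spread between arrays and to set the day 6 difference beside those of the earlier days. The 2 untreated arrays entered only 1 alternative fit, in which they added to the estimate of the spread.

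Estradiol is the main ovarian estrogen. It acts mostly through the receptors encoded by Esr1 and Esr2, ligand-activated transcription factors that bind DNA at inverted repeats of the motif AGGTCA and its variants. Genistein is a soy isoflavone that binds the same receptors, with a preference for the Esr2 product, and is also known as an inhibitor of tyrosine kinases. The thymus, where T cells mature on a network of cortical and medullary epithelial cells, shrinks under high estrogen, and both thymocytes and the epithelium have been reported to respond. The comparison asks how the tissue differs between the compounds after the same number of days. Doses and routes differed, the labels describe no group given oil alone, and a difference between compounds cannot be told apart from one of dose, injection, oil or diet.

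The tissue read as thymus on all 4 arrays. The scaled signal, a brightness per probe set after each array was brought to the same trimmed mean, was 2210.4 and 2148 for the recombinase gene Rag1 in the estradiol arrays and 1917 and 2483 in the genistein arrays. Prss16, a protease gene of the cortical epithelium, stood at 2845 and 2726 with estradiol and 2232 and 2763 with genistein. Of 28 marker genes of muscle, nerve, parathyroid or thyroid tissue, 16 were too dim to test and 5 had no probe set of their own. Pth, the parathyroid hormone gene, read 64 and 113 with estradiol and 72.7 and 125 with genistein. The fat cell gene Ucp1 was uneven within each treatment, at 138 and 20.7 with estradiol and 42.8 and 216 with genistein. How much adjoining tissue each pool held was not tested. The estradiol arrays correlated with each other at r = 0.985 across probe sets and the genistein arrays at r = 0.961, while pairs across treatments ran between 0.951 and 0.963. The signal of the 3' over the 5' Gapdh control probe sets, a measure of RNA integrity, was 0.950 and 0.945 on the estradiol arrays and 1.503 and 1.04 on genistein replicates 1 and 2, the first being the highest of the 12 treated arrays. The same ratio for Tfrc was 10.2 and 3.50 on estradiol replicates 1 and 2, against 2.04 and 2.92 on the genistein arrays.

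Estradiol thymuses held more transcript of the cortical epithelial genes Il7, Pax1 and Tbata, of the cytokine receptor gene Lifr, of fibronectin (Fn1) and of the T cell receptor gamma segment Trgv1, by 1.63-fold to 2.77-fold. They held less Igha, Cbln1 and Nol12. Of 13576 probe sets tested with limma across the 12 treated arrays, 45 were called at an adjusted p under 0.05, or 0.331% of those tested. Of these, 40 were higher with estradiol (0.295%) and 5 were lower (0.0368%), and 30 differed by more than 2-fold. Both estradiol arrays lay beyond both genistein arrays for all 45, where 24.9% of all tested probe sets had both estradiol arrays above and 25.5% had both below. The 45 probe sets stood for 38 named genes and 5 probe sets without a single gene symbol. Taking each gene by its brightest probe set, 26 of 8218 genes were called (0.316%), 23 of them higher with estradiol (0.28%) and 3 lower (0.0365%).

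The calls lay close to the threshold. An adjusted p over 0.04 was found for 30 of the 45, and the smallest p among probe sets not called was 0.0549. At an unadjusted p under 0.05 the higher and lower sides were nearly equal, with 992 probe sets higher with estradiol (7.31%) and 967 lower (7.12%). Genistein replicate 1 was the lower of the genistein arrays for 32 of the 40 probe sets called higher, against 53.2% of all probe sets tested. Without that array 5 probe sets were called, 3 of them among the 45, and without genistein replicate 2 the count was 97. Leaving out estradiol replicate 1 or 2 of day 6 left 4 or 2 calls, estradiol replicate 1 or 2 of day 3 left 5 or 4, and either genistein array of day 2 left 27. With the Gapdh ratio as a covariate limma called none, and 2027 probe sets had an unadjusted p under 0.05. All 40 differences called higher were above 0 under the covariate, with a median log2 difference of 0.97, against 1.08 as reported and 0.95 without genistein replicate 1. In whole tissue, fewer cells of a type and less RNA per cell cannot be told apart.

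**Figure D1:**
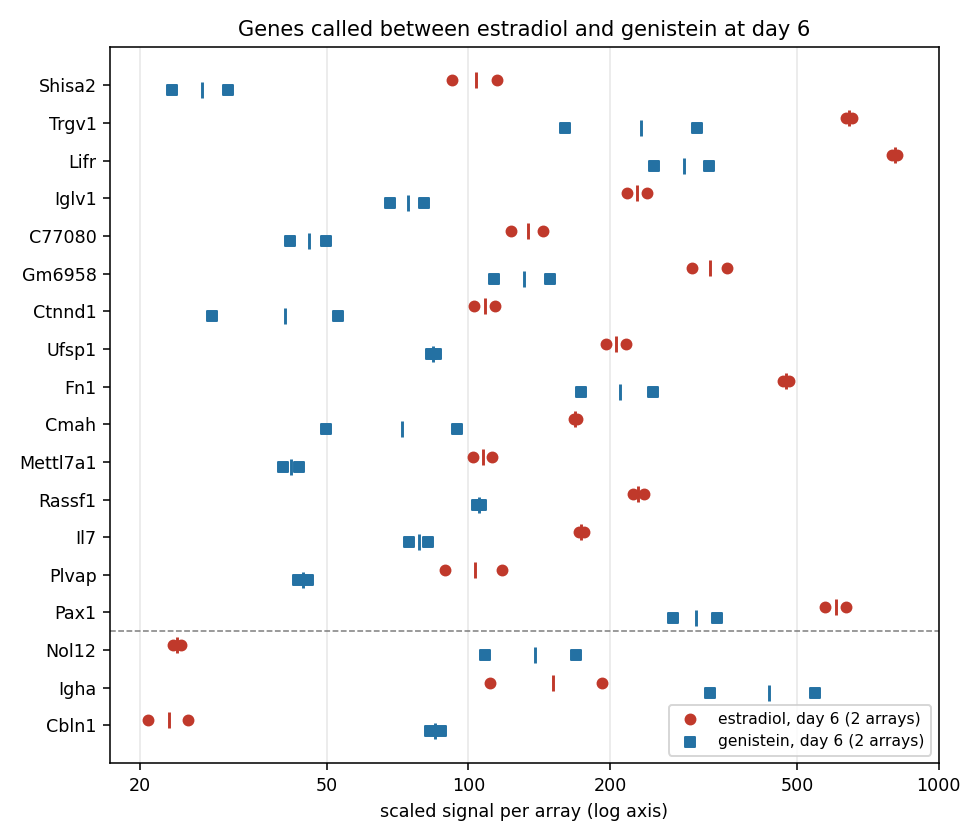
Scaled signal on each of the 4 day 6 arrays (log axis) for the 18 genes named by rule, with estradiol as red circles above genistein as blue squares and the mean of each pair as a tick. The 15 genes above the dashed line have both estradiol arrays to the right of both genistein arrays, and Nol12, Igha and Cbln1 below it have both to the left.

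Cortical epithelial genes had the highest median difference of the gene lists described here. Il7 encodes the cytokine that the thymic stroma supplies to early thymocytes. Its signal was 172 and 176 in the estradiol arrays, against 74.6 and 82.2 in the genistein arrays, a log2 difference of 1.01 ± 0.17 (SE, adjusted p = 0.0433). The estradiol arrays were close to each other and both above the genistein arrays, 2.01-fold on the means of log values. Pax1, a transcription factor gene of the pharyngeal pouch that forms the thymic epithelium, read 572 and 635 with estradiol, against 272 and 338 with genistein (log2 difference 0.95 ± 0.16, adjusted p = 0.0433). Neither pair reached into the other. Tbata, a gene of thymic stromal cells, had signals of 2412 and 2262 with estradiol, against 1377 and 1485 with genistein, and differed by 0.70 ± 0.13 on the log2 scale (adjusted p = 0.0461). Its other tested probe sets differed by 0.54 to 0.55 in the same direction without being called.

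Of 21 cortical epithelial genes listed, 16 were tested, 3 were too dim (Bmp4, Eya1, Pax9) and 2 were not analysed here. The 3 above were called higher and none was called lower, against 0.28% and 0.0365% of all genes. Both estradiol arrays lay above both genistein arrays for 12 of the 16 (23.4% of all genes) and below them for 2 (28.2%). The median log2 difference of the list was 0.44, against -0.03 over all genes. Summed over the 16 genes, the signal was 17637 and 17223 with estradiol, against 13429 and 14448 with genistein.

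The largest difference in that list was not called. Ly75, the gene of the endocytic receptor DEC-205, read 198 and 149 with estradiol and 55.2 and 79.8 with genistein, a log2 difference of 1.18 ± 0.25 (adjusted p = 0.0837). The cytokeratin genes Krt18 and Krt8 differed by 0.49 and 0.39 (adjusted p = 0.182 and 0.200), with no overlap between the pairs. Krt18 stood at 1662 and 1679 in the estradiol arrays, against 1146 and 1232 in the genistein arrays. The defining markers were closer: Ccl25, a chemokine gene that draws thymocyte progenitors, differed by 0.31 on the log2 scale with a 95% interval of 0.05 to 0.58 (adjusted p = 0.264). Prss16 differed by 0.16 with an interval of -0.11 to 0.43 (adjusted p = 0.574). For Foxn1, the master transcription factor gene of thymic epithelium, the difference was 0.29 with an interval of -0.28 to 0.865 (adjusted p = 0.641), and its genistein arrays were far apart at 60.3 and 102, against 94.6 and 106 with estradiol.

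In the medullary epithelial list none of 16 tested genes was called, 7 differences were above 0 (46.5% of all genes) and 9 below, and the median log2 difference was -0.03, with a range of -0.18 (without genistein replicate 1) to 0.16 over the alternative settings. Trp63, a transcription factor gene of epithelial progenitors, had the smallest p of the list at 239 and 232 with estradiol and 123 and 141 with genistein (log2 difference 0.76, adjusted p = 0.104). Aire, which drives the display of tissue antigens in the medulla, differed by -0.29 (interval -0.70 to 0.12), and the basal keratin gene Krt5 by 0.01 (interval -0.36 to 0.39). The keratin gene Krt14 lay higher with estradiol (limma adjusted p = 0.293), at 0.30 to 0.49 on the log2 scale over the alternative settings. At an unadjusted limma p under 0.05 the list had 3 genes higher (6.47% of all genes) and 2 lower (7.84%).

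**Figure D2:**
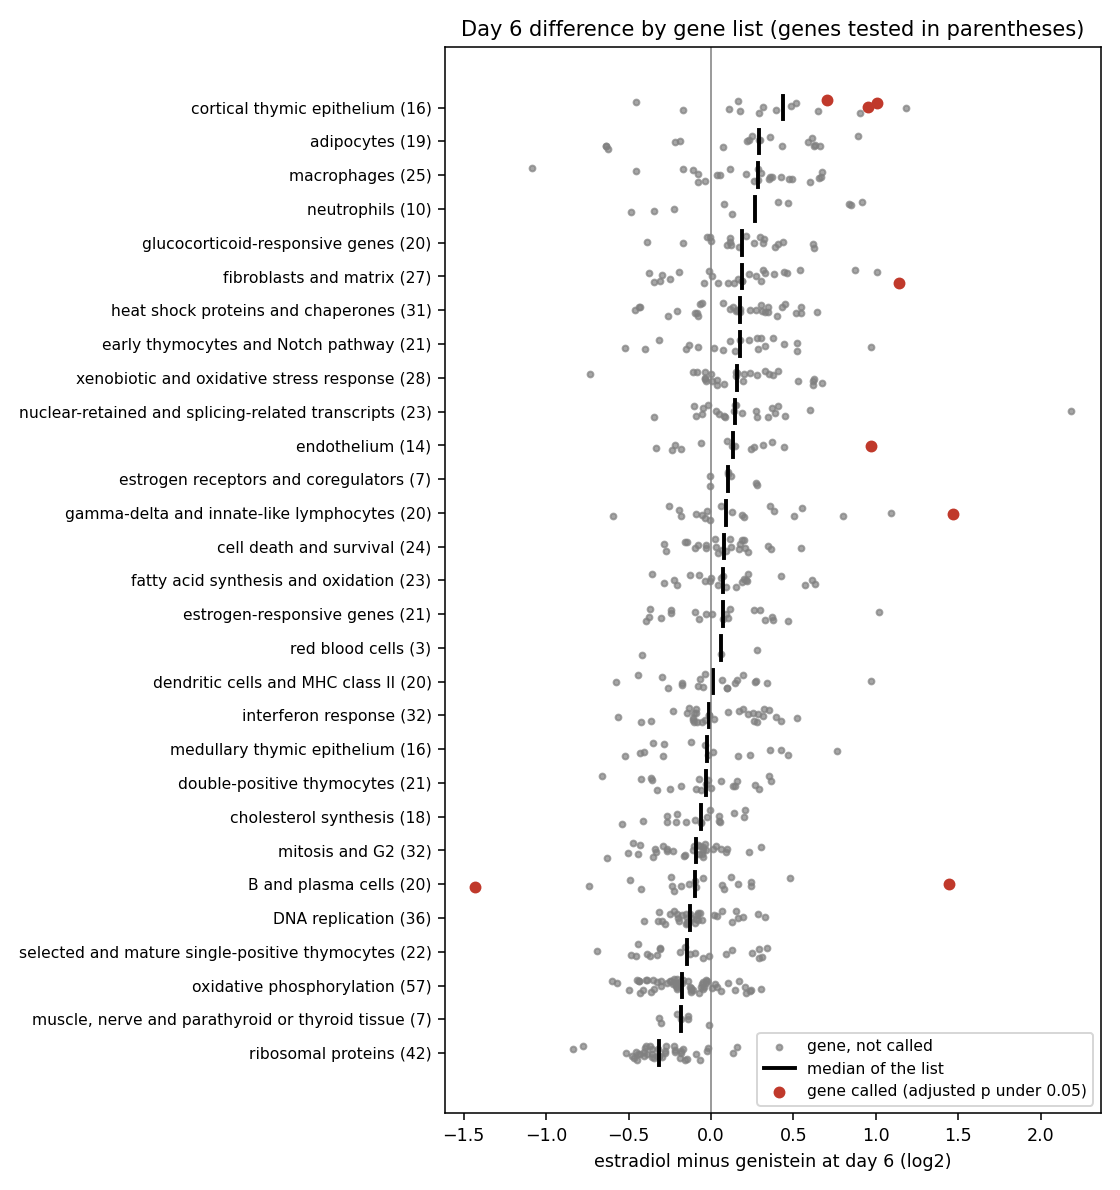
Log2 difference between estradiol and genistein at day 6 for each tested gene of 29 lists, 1 point a gene by its brightest probe set, with called genes in red and the list's median as a black bar. The cortical epithelial list has the highest median at 0.44 and 3 called genes, and the ribosomal protein list the lowest median at -0.32 with none.

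Lifr encodes the receptor subunit for leukemia inhibitory factor. The estradiol arrays read 794 and 817, against 248 and 325 in the genistein arrays, a log2 difference of 1.45 ± 0.27 (adjusted p = 0.0461). Fibronectin, an adhesive protein of the extracellular matrix, gave 467 and 482 for Fn1 with estradiol, against 173 and 247 with genistein (log2 difference 1.14 ± 0.17, adjusted p = 0.0230). In both genes the estradiol pair was tight, and both genistein arrays were lower and farther apart. The spread was not particular to these genes. Over all probe sets tested the median SD at day 6 was 0.084 with estradiol and 0.153 with genistein on the log2 scale. Plvap, which encodes the diaphragm protein of fenestrated endothelium, read 89.0 and 118 with estradiol and 43.4 and 45.5 with genistein (log2 difference 0.97 ± 0.18, adjusted p = 0.0461).

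Around these, matrix and vessel genes were mixed. Of 27 tested fibroblast and matrix genes, Fn1 was called higher (0.28% of all genes), 13 had both estradiol arrays above (23.4% of all genes) and 6 both below (28.2%), and the median log2 difference was 0.19. That median was 0.094 without genistein replicate 1 and 0.081 with the Gapdh ratio as a covariate. Their summed signal was 9346 and 9430.5 with estradiol, against 8414 and 8571 with genistein. Igfbp7, a secreted growth factor binding protein gene, just missed the threshold at 409 and 432 with estradiol and 182 and 223 with genistein (log2 difference 1.01, adjusted p = 0.0666). The proteoglycan gene Dcn read 506 and 556 with estradiol and 219 and 361 with genistein, without overlap (log2 difference 0.88, adjusted p = 0.112). Of 14 endothelial genes tested, Plvap was the sole call (0.28% of all genes were called higher). Both estradiol arrays lay above for 6 of the 14 (23.4% of all genes) and below for 4 (28.2%). The general endothelial markers Cdh5 and Kdr differed by 0.10 (interval -0.34 to 0.53) and -0.18 (interval -0.63 to 0.27). Over the endothelial list the summed signal was 1319 and 1361 with estradiol, against 1137 and 1245.5 with genistein.

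Receptor loci of lymphocytes moved in both directions. Trgv1 belongs to the gamma chain locus of the T cell receptor and read 634 and 653 with estradiol, against 160.2 and 306 with genistein, a log2 difference of 1.47 ± 0.23 (adjusted p = 0.0311). The genistein arrays differed nearly as much from each other as the higher of them did from the estradiol pair. A probe set for the neighbouring segment Trgv4 was called too, at 861 and 959 with estradiol and 391 and 472 with genistein (log2 difference 1.05, adjusted p = 0.0433). The brightest Trgv4 probe set differed by 0.55 without being called. Segments of this locus are similar in sequence and their probe sets may share signal.

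The wider list of gamma-delta and innate-like lymphocyte genes had 20 tested members, of which Trgv1 was called higher (0.28% of all genes), and a median log2 difference of 0.09. The sign of that median turned with 1 array, to -0.02 without genistein replicate 1 and -0.03 without estradiol replicate 2. Its summed signal was 5827 and 6167 with estradiol, against 5174 and 5440.4 with genistein. Fcer1g, the signalling chain shared by Fc receptors and natural killer receptors, read 154 and 141 with estradiol and 94.5 and 63.9 with genistein (log2 difference 0.80, adjusted p = 0.167). Cd7 differed by 1.09, its signals being 137 and 131 with estradiol and 26.0 and 101.3 with genistein, of which replicate 1 lay far below the other arrays (adjusted p = 0.285).

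Among immunoglobulin genes, the lambda variable segment Iglv1 was higher with estradiol, at 239.9 and 218, against 80.4 and 68.2 with genistein (log2 difference 1.44 ± 0.21, adjusted p = 0.0219). Igha, the constant region gene of IgA, was lower, at 111 and 192 with estradiol, against 546 and 326 with genistein (log2 difference -1.43 ± 0.27, adjusted p = 0.0491). The pairs did not overlap in either gene, though the Igha arrays were spread widely within each treatment. A second Igha probe set was called at -1.38, and the third, at -1.03, was not (adjusted p = 0.185).

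Ighm, the heavy chain gene of IgM, gave readings that depended on the probe set. A dim probe set read 172 and 236 with estradiol, against 58.5 and 59.1 with genistein, and was called higher (log2 difference 1.54), as was a brighter one (log2 difference 1.35). The brightest read 2622 and 2572 with estradiol and 2597 and 1853 with genistein and was not called (log2 difference 0.24, adjusted p = 0.513). Over the 20 tested genes of B and plasma cells the median log2 difference was -0.09 (0.05 without estradiol replicate 1), and the summed signal was 7367 and 7410.3 with estradiol, against 7658.5 and 6829 with genistein. Jchain, which joins IgA and IgM chains, differed by 0.48 and the low-affinity IgE receptor gene Fcer2a by -0.74, neither called (adjusted p = 0.261 and 0.116).

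Among genes called by their brightest probe set the largest rise was that of Shisa2, an endoplasmic reticulum protein that in frog embryos restrains Wnt and FGF receptors. Its signal was 92.1 and 115 with estradiol, against 23.4 and 30.8 with genistein (log2 difference 1.47 ± 0.25, adjusted p = 0.0433), and the genistein arrays lay below 44.8, the lowest mean signal of any probe set tested. Ctnnd1 encodes p120 catenin, which holds cadherins at the cell surface, and read 103 and 114 with estradiol and 28.5 and 52.9 with genistein (log2 difference 1.17, adjusted p = 0.0461). Cmah, whose enzyme makes the sialic acid Neu5Gc, read 170.0 and 167 with estradiol and 49.7 and 94.6 with genistein (log2 difference 1.12, adjusted p = 0.0461). In Ctnnd1 and Cmah genistein replicate 1 lay well below replicate 2, and without it the differences were 0.85 and 0.74.

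Several called genes had pairs that hardly varied within a treatment. Ufsp1, a protease gene of the ubiquitin-like modifier UFM1, read 196 and 216 with estradiol, against 83.1 and 85.4 with genistein (log2 difference 1.14 ± 0.17, adjusted p = 0.0252). The Ras association domain gene Rassf1, known as a tumour suppressor, read 236 and 224 with estradiol, against 104 and 106 with genistein (log2 difference 1.02, adjusted p = 0.0461). Mettl7a1, a methyltransferase-like gene, read 112 and 102 with estradiol, against 40.4 and 43.6 with genistein (log2 difference 1.09, adjusted p = 0.0442). In all 3 genes the genistein arrays were close together and below both estradiol arrays.

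C77080 read 123 and 144 with estradiol, against 41.7 and 49.8 with genistein, a log2 difference of 1.28 ± 0.19 (adjusted p = 0.0219). Gm6958, a predicted gene, read 299 and 354 with estradiol, against 113 and 149 with genistein (log2 difference 1.22, adjusted p = 0.0311). Both had clear gaps between the treatments. The 7 further genes called higher by their brightest probe set differed by 0.69 to 0.94 on the log2 scale. They were AU020206, the lysosomal cathepsin gene Ctsz, the thymus LIM protein gene Crip3, the deubiquitinase gene Usp8, the folate enzyme gene Aldh1l1, the PIAS-like coregulator gene Zmiz2 and the small GTPase gene Rab43. The probe sets of Rab43 disagreed in sign, the called one at 0.83 and the other at -0.42, with 63.2 and 66.9 with estradiol, against 83.6 and 103 with genistein (adjusted p = 0.273).

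Among the genes called lower with estradiol, Nol12 encodes a nucleolar RNA-binding protein and read 23.5 and 24.5, against 169 and 108 with genistein (log2 difference -1.92 ± 0.36, adjusted p = 0.0461). Cbln1, known as a synaptic organiser of the cerebellum, read 25.3 and 20.8 with estradiol, against 87.4 and 82.8 with genistein (log2 difference -1.37 ± 0.25, adjusted p = 0.0461). The estradiol arrays were dim for both, and folds were taken after adding 16 to each signal, which understates the change of dim genes.

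Many calls came from a probe set that was not the brightest of its gene. This held for 14 of the 45, among them Nktr, Cisd1, Wdr26, Ybx3, Gbp2, Pltp, Dst, Atp2a2, Iars and Enah. Of 19 called genes with several tested probe sets, only Ighm and Igha had more than 1 called. Of the other 29 probe sets of these genes 25 differed in the same direction, 10 of them with an unadjusted p under 0.05, and 4 in the opposite one, 1 of them (Rab43) with such a p. The probe set with the smallest p of all carried no single gene symbol and was singled out after its values were seen. It read 325 and 299 with estradiol, against 34.9 and 36.9 with genistein (log2 difference 2.66 ± 0.28, adjusted p = 0.00463), and remained called with each of the 12 arrays left out in turn, but not with the Gapdh ratio as a covariate (limma adjusted p = 0.0763).

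The letters of the promoters can be set beside these genes, since AGGTCA is the core of the sequence that estrogen receptors bind. RefSeq windows of build GRCm38.p6, from 250 bases before to 50 after a start site, were matched for 24 of the 35 named genes called higher. AGGTCA on either strand was in the window of 7 of the 24 (29.2%), against 15.1% of 6684 matched genes tested and 18.1% of all 27025 genes of the promoter table. Called genes had more windows each, and counted by window the shares were 20% of 35, against 12.6% of 8635 among genes tested. The full repeat GGTCANNNTGACC, searched likewise and containing AGGTCA where an A precedes it, was in none of the 24 and in 0.015% of the genes tested. A match describes letters only, and no binding was measured. The windows shown are those of the genes named by rule that rose and that hold AGGTCA, printed along the gene's strand with the motif in capitals, on either strand. Lifr, Ctnnd1 and Rassf1 each had another window, at another start site and not shown, without AGGTCA.
Lifr (chr15:7129322-7129621, plus strand): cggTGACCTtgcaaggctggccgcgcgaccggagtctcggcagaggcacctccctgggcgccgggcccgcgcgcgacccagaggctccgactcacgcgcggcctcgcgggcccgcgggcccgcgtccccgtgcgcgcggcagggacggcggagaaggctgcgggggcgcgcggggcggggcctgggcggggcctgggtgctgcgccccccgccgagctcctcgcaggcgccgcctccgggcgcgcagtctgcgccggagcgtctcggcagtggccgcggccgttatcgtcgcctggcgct
Ctnnd1 (chr2:84650691-84650990, minus strand): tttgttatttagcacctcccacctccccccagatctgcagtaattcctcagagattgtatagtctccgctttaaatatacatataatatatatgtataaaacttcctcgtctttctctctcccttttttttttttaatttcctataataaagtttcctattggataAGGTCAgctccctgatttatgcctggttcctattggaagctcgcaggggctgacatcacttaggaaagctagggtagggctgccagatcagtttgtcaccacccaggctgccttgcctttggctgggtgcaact
Ufsp1 (chr5:137294419-137294718, plus strand): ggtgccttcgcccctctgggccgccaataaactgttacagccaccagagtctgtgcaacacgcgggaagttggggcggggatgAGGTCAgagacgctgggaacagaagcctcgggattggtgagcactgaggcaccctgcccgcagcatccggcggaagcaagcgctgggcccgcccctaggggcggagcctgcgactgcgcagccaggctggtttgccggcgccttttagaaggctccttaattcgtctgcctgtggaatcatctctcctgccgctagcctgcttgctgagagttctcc
Rassf1, the second of its start sites (chr9:107554333-107554632, plus strand): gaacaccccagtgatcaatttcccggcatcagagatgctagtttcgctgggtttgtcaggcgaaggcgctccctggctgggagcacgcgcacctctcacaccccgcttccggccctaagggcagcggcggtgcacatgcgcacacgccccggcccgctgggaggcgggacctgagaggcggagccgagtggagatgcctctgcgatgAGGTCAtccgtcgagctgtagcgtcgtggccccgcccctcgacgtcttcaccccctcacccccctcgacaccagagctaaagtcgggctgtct
In Rassf1 the motif lies 43 bases before the start, and in Lifr at the far end of the window, 247 bases before it. In Nol12, called lower, the window also held AGGTCA.

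Genes of the estrogen pathway itself were mostly too dim or not called. Esr1 gave 13.2 and 17.1 with estradiol and 15.2 and 12.9 with genistein, and Esr2 gave 9.0 and 18.2 with estradiol and 11.4 and 14.0 with genistein. Pgr, the progesterone receptor gene and a classic estrogen target in the uterus, gave 14.9 and 16.8 with estradiol and 7.1 and 32.7 with genistein. All 3 were below the level at which probe sets were tested, and no difference was detectable. Of 21 tested genes on the list of estrogen-responsive genes none was called, and the median log2 difference was 0.07, but -0.06 without genistein replicate 1 and -0.09 with the Gapdh ratio as a covariate. The nearest was Igfbp5, a growth factor binding protein gene, at 203 and 270.3 with estradiol, against 101.0 and 114 with genistein (log2 difference 1.02 ± 0.20, adjusted p = 0.0602). Of the 21 differences 12 were above 0 and 9 below. Both estradiol arrays lay above both genistein arrays for 7 (23.4% of all genes) and below for 6 (28.2%). Tff1 lay lower with estradiol (limma adjusted p = 0.214), at -0.47 to -0.32 on the log2 scale over the alternative settings. Of 20 tested glucocorticoid-responsive genes none was called, with a median of 0.19 (0.125 without genistein replicate 1 and 0.06 with the covariate), and Fkbp5, a chaperone gene used as a marker of glucocorticoid action, read 1428 and 1447 with estradiol and 1028 and 1162 with genistein (adjusted p = 0.335).

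For the defining genes of thymocytes the differences were small beside their intervals. Rag1 differed by 0.00 on the log2 scale with a 95% interval of -0.36 to 0.36, Cd8a by -0.02 (interval -0.28 to 0.25) and Cd4 by 0.15 (interval -0.42 to 0.73). The Cd4 signals were 767 and 666 with estradiol and 485 and 845 with genistein, so the estradiol arrays lay between the genistein ones. The signs for these genes turned under other settings or without 1 array, and none was called. Of 21 tested genes of double-positive thymocytes none was called, and the median was -0.03, with -0.13 without genistein replicate 1 and 0.10 under quantile normalisation, which gives every array the same distribution of signals. Within the list the adhesion receptor gene Cd2 read 226 and 254 with estradiol and 420.4 and 358 with genistein (log2 difference -0.66, adjusted p = 0.110), and Dntt, the enzyme that adds bases at receptor joins, read 2709 and 2498 with estradiol and 3554 and 3452 with genistein (log2 difference -0.43, adjusted p = 0.171).

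Early thymocyte and Notch pathway genes had a median of 0.17 over 21 tested, and selected and mature thymocyte genes one of -0.145 over 22, with no call in either. Without genistein replicate 1 the early list's median was 0.096, with the Gapdh ratio as a covariate it was 0.056, and over all alternative settings the mature list's ran from -0.23 to -0.10. Notch1, the receptor that commits progenitors to the T lineage, read 702 and 753 with estradiol and 555 and 454 with genistein (log2 difference 0.52, adjusted p = 0.216). Il6ra, an interleukin 6 receptor gene, read 61.2 and 66.7 with estradiol and 96.7 and 131 with genistein (log2 difference -0.69, adjusted p = 0.175). Neither pair overlapped the other in these genes.

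Cell cycle genes lay slightly lower with estradiol, without a call. Of 32 tested genes of mitosis and G2, 25 had a difference below 0 and 14 had both estradiol arrays below both genistein arrays (28.2% of all genes), with a median of -0.09. The mitotic kinase gene Aurka read 228 and 215 with estradiol and 378 and 326 with genistein (log2 difference -0.63, adjusted p = 0.133), and Cdk1 read 585 and 559.8 with estradiol and 916 and 729.5 with genistein (adjusted p = 0.151). Genistein replicate 1 was above replicate 2 in both. Without it the median of the list was -0.02. Genes of DNA replication had a median of -0.13 over 36 tested, with 27 below 0, and -0.05 with the Gapdh ratio as a covariate.

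Ribosomal protein genes were the list that lay lowest. Of 73 listed, 42 had a probe set of their own, and 40 of these had a difference below 0, the exceptions being Rpl37 and Rpl14. Over all genes, 46.5% of differences were above 0. Both estradiol arrays were below both genistein arrays for 34 of the 42 (28.2% of all genes), none was called, and the median was -0.32. Rpl7a read 3267 and 3351 with estradiol, against 4959 and 4534 with genistein (log2 difference -0.52, adjusted p = 0.110). Of the 42 genes 34 were among the brightest 5% of probe sets, and that brightness class as a whole had a median of -0.17 with 75.8% below 0. Under quantile normalisation the median of the ribosomal genes was -0.05 with 26 of 42 below 0.

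Genes of oxidative phosphorylation also lay lower, with a median of -0.175 over 57 tested, 45 below 0 and none called. Under quantile normalisation the median was -0.115 with 38 below 0, and with the Gapdh ratio as a covariate it was -0.057. Atp5c1, a subunit gene of the ATP synthase, read 1236 and 1199 with estradiol, against 2059.7 and 1669 with genistein (log2 difference -0.60, adjusted p = 0.100). Genistein replicate 1 was the higher genistein array for 51 of the 57, and without it the median was -0.06. The Gapdh ratio of that array was given above.

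**Figure D3:**
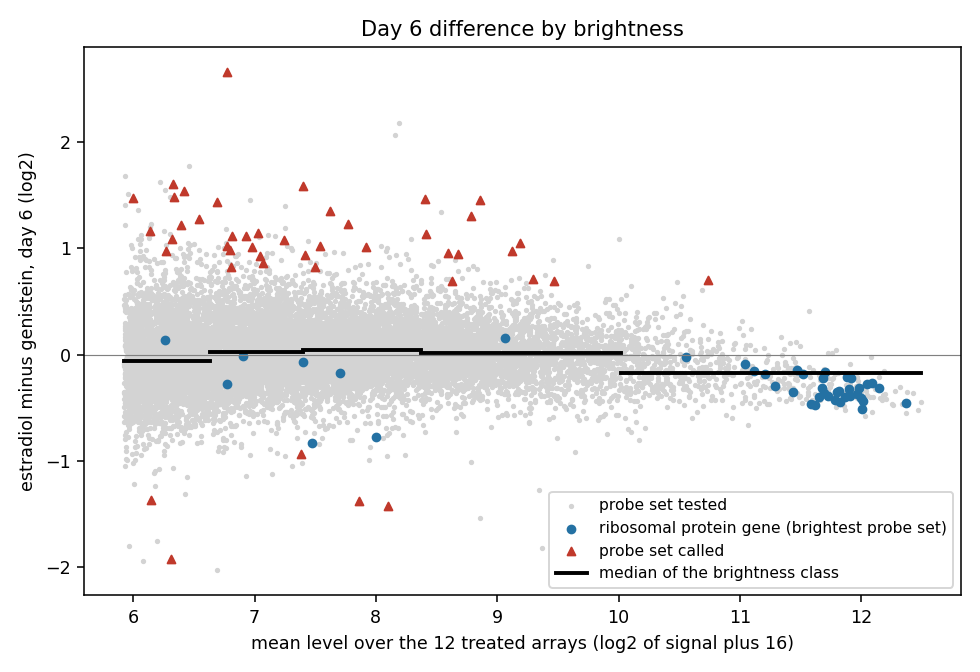
Log2 difference between estradiol and genistein at day 6 against the mean level of each probe set over the 12 treated arrays, with called probe sets as red triangles, ribosomal protein genes as blue circles and the median of each of 5 brightness classes as a black bar. The medians run from -0.06 to 0.04 in the dimmer classes and are -0.17 in the brightest 5%, where 34 of the 42 ribosomal genes fall.

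Macrophage, neutrophil and fat cell genes lay mostly above 0, with no call in any of these lists. The macrophage list had 25 tested genes, 13 with both estradiol arrays above (23.4% of all genes) and 2 with both below (28.2%), a median of 0.28 (0.16 with the Gapdh ratio as a covariate) and summed signals of 11727 and 12653 with estradiol, against 9938 and 10222 with genistein. Of its differences 18 were above 0 and 7 below, and they ran from -1.08 to 0.67. At an unadjusted limma p under 0.05 there were 7 higher with estradiol (6.47% of all genes) and 2 lower (7.84%). Slc40a1, the iron exporter gene, read 364 and 393 with estradiol and 217 and 254 with genistein (log2 difference 0.65, adjusted p = 0.110). The phagocytic receptor gene Mertk read 86.0 and 121 with estradiol and 55.6 and 61.1 with genistein (adjusted p = 0.174). The macrophage genes Siglec1 and Cd14 lay lower with estradiol (limma adjusted p = 0.32 and 0.265). Over the alternative settings their log2 differences ran from -1.7 to -0.47 and from -0.53 to -0.31. Defining markers were nearer to 0, with Csf1r at 0.28 (interval -0.01 to 0.58), Adgre1 at 0.11, Cd68 at -0.04 and C1qa at 0.04.

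The neutrophil granule gene Ngp read 356 and 371 with estradiol, against 176 and 194 with genistein, a log2 difference of 0.92 ± 0.25 (adjusted p = 0.155). S100a8 and S100a9, the calprotectin genes, differed by 0.84 and 0.85, with no overlap (adjusted p = 0.188 and 0.167). Of the 10 tested neutrophil genes 7 had a difference above 0 and 3 below, the lowest at -0.485. Both estradiol arrays lay above both genistein arrays for 5 of them (23.4% of all genes) and below for 3 (28.2%). The median of the 10 was 0.27, which was 0.06 without genistein replicate 1. Fat cell genes had a median of 0.29 over 19 tested, which was 0.088 without that array. Of the 19 differences 14 were above 0 and 5 below. Fabp4, the fatty acid carrier of adipocytes, read 834 and 716 with estradiol and 434 and 567 with genistein (log2 difference 0.62, adjusted p = 0.207). Apoc1 and Elovl3 went the other way without overlap, at -0.63 and -0.64 (adjusted p = 0.178 and 0.244). The pairs overlapped for the defining marker Adipoq, at 100 and 129 with estradiol and 67.0 and 108 with genistein (adjusted p = 0.666). With the Gapdh ratio as a covariate the median of that list was 0.04, and the part of RNA quality in these values was not tested.

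Malat1, a long RNA retained in the nucleus, was read by 5 tested probe sets, of which the brightest was at 739.6 and 643 with estradiol, against 75.1 and 248 with genistein. The genistein arrays were far apart, replicate 1 being the lower, and the log2 difference of 2.18 ± 0.42 was not called (adjusted p = 0.0564). The other 4 differed by 0.37 to 1.40, and the pairs overlapped in 3 of them. Of 23 tested nuclear-retained and splicing-related transcripts 12 had both estradiol arrays above (23.4% of all genes) and none had both below (28.2%), with a median of 0.15 (0.075 without genistein replicate 2). Nktr, a splicing-related cyclophilin gene, was called by a dimmer probe set at 121 and 157 with estradiol and 28.2 and 41.8 with genistein (log2 difference 1.60, adjusted p = 0.0107). Its brightest probe set differed by 0.45 and was not called (adjusted p = 0.283).

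No gene of the remaining lists was called by its brightest probe set. Heat shock proteins and chaperones had a median of 0.18 over 31 tested, xenobiotic and oxidative stress genes 0.155 over 28, fatty acid enzymes 0.07 over 23, cell death genes 0.08 over 24, the interferon response -0.01 over 32, dendritic cell and MHC class II genes 0.01 over 20, and cholesterol synthesis -0.06 over 18. With 1 array of day 6 left out the interferon median ran from -0.13 to 0.22, that of dendritic cell genes from -0.08 to 0.14 and that of cholesterol synthesis from -0.18 to 0.05, the chaperone median fell to 0.083 without genistein replicate 2, and the xenobiotic median was 0.06 with the Gapdh ratio as a covariate. Hspa4 read 482 and 498 with estradiol and 303 and 315 with genistein, while Hsp90aa1 read 1565 and 1472 with estradiol and 2236 and 1887 with genistein (adjusted p = 0.180 and 0.174). These chaperone genes lay in opposite directions. Nqo1, the quinone reductase gene, read 176 and 188 with estradiol and 107 and 119 with genistein (log2 difference 0.62, adjusted p = 0.136). Of the coregulators and estrogen enzymes 7 were tested, with a median of 0.11 and no unadjusted p under 0.05, a level that 6.47% of all genes passed on the higher and 7.84% on the lower side.

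The differences at days 2 and 3 come from other arrays, which enter the day 6 test through the estimate of the spread and the filter on brightness. Calls favour probe sets with a small spread on those arrays too. Pairs that do not overlap at days 2 and 3 are therefore not independent of the choice. Of the 40 probe sets called higher at day 6, 35 had a difference above 0 at day 2 (48.2% of all probe sets tested) and 38 at day 3 (52% of all). Both estradiol arrays lay above both genistein arrays for 28 of them at day 2 (15.4% of all probe sets tested) and for 33 at day 3 (22.9%). The median log2 difference of the 40 was 0.395 at day 2, 0.416 at day 3 and 1.08 at day 6, the last being the day on which they were chosen. Of the 5 called lower, 4 lay below 0 at day 2 and 5 at day 3. At day 2 the fit called 8 probe sets (0.0589%), 3 of them among the 45, and at day 3 it called 1 (0.00737%), which was among them. The day 2 and day 3 arrays include 3 estradiol arrays deposited at another scale and rescaled here.

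The named genes took these values over the days, with no change between days passing the threshold. Trgv1 differed by 0.98 at day 2, 1.03 at day 3 and 1.47 at day 6. Lifr differed by 1.71, 0.31 and 1.45 on the same days, and C77080 by 1.32, 0.27 and 1.28, both lowest at day 3. Il7 differed by 0.00 at day 2, 0.60 at day 3 and 1.01 at day 6, a stepwise order that Ctnnd1 shared with -0.06, 0.86 and 1.17. Pax1 stayed above 0 throughout at 0.66, 0.31 and 0.95.

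Whether the day 6 difference itself departed from the earlier ones was tested in the same fit. None of 13576 probe sets was called by limma for day 6 against day 2, with 1022 at an unadjusted p under 0.05 (7.53%), and none for day 6 against day 3, with 330 (2.43%). Of the 45 probe sets, 28 and 24 had an unadjusted p under 0.05 in those tests, in which the day 6 values that chose them also enter. The smallest p for day 6 against day 3 belonged to Plvap, with 1.05 at day 2, -0.86 at day 3 and 0.97 at day 6 (adjusted p = 0.119 for the change). For day 6 against day 2 the smallest belonged to Gtpbp6, a GTP-binding protein gene, with -1.33 at day 2 and 0.91 at day 6 (adjusted p = 0.578). Among genes taken by their brightest probe set, next in order for day 2 were Gm6958, Tmem266, Myo18a, Uck2 and Tap2 (each adjusted p = 0.578). For day 3 the next such genes were Fn1, Iglv1, C77080, Sec24b and Igdcc4 (each adjusted p = 1.00). Some probe sets that were not the brightest of their gene came ahead of these, among them those of Nktr for day 2 and of Ighm and Gbp2 for day 3.

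**Figure D4:**
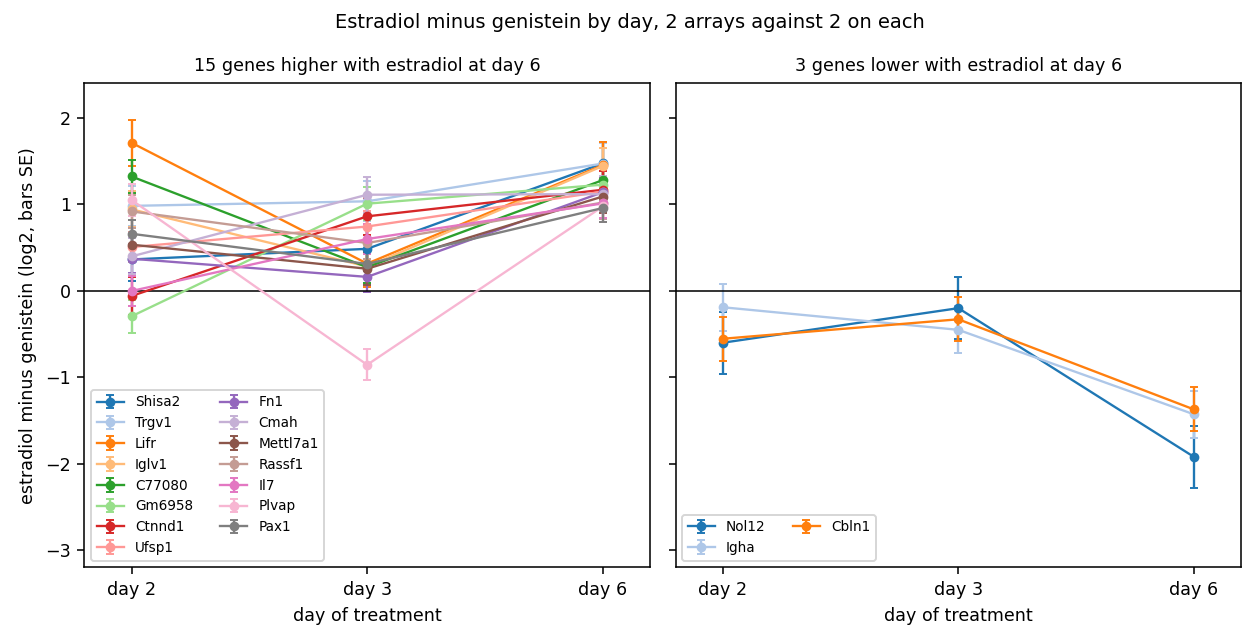
Log2 difference between estradiol and genistein at days 2, 3 and 6 with its SE for the 15 genes called higher with estradiol at day 6 (left) and the 3 called lower (right), each from 2 arrays against 2. The lines on the left lie above 0 except Gm6958, Ctnnd1 and Il7 at day 2, at or below it, and Plvap at day 3, and the 3 on the right lie below 0 on all days.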

How the data were processed

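Thymus RNA was measured on Affymetrix arrays, and the deposited values are signal intensities made by the authors with MAS5 5.0, per the submitters' processing notes. Of 22690 probe sets, 64 controls were removed. Each array was multiplied to a common 2% trimmed mean of 150.04, which left the 4 day 6 arrays as deposited and rescaled 3 estradiol arrays of days 2 and 3. Values were taken as log2 of signal plus a pseudocount of 16. Probe sets in the lowest 40% of mean level on the 12 treated arrays were dropped without regard to group. A signal of about 44.8 was the lowest mean tested. The number of arrays limits the precision.

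limma 3.58.1 in R 4.3.3 fitted 6 group means with an eBayes trend, 6 residual degrees of freedom (12.6 after moderation) and Benjamini-Hochberg adjustment over all 13576 probe sets. The 95% intervals are of the same fit. Probe sets with 1 gene symbol numbered 20393, with several 691 and with none 1606, and 20364 were matched to the current gene table. A gene is represented by its brightest probe set, and 2823 of 8218 genes had several. Genes were named by a rule: the 15 largest rises and 15 largest falls among called genes with no overlap, all where fewer passed, the 6 smallest p for tests between days, Esr1, Esr2, Pgr, Rag1, Cd4 and Cd8a always, and up to 5 per list with its defining markers. The comparison and the gene lists were chosen with earlier results of these data known. The fit was tested on simulated data. Promoter windows were read from RefSeq (GRCm38.p6), and figures drawn with matplotlib 3.10.9 in Python 3.11.15. The labels call the pools independent biological replicates, so p-values speak of pools of mice from 1 study. Alternatives changed the pseudocount, filter, normalisation, trend, block, weights, covariate and the arrays used. Same-numbered replicates deviated at r = 0.0517 between the day 6 groups, and at -0.257 to 0.353 over all 15 pairs of groups, and the labels give the numbers no meaning, so they were not treated as pairs. Detection calls and image files were not used here.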

Additional observations from a re-analysis of the deposited data

How the results depend on the processing

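No called probe set changed sign under any of up to 27 alternatives, but most of these could not turn a sign. The pairs did not overlap for any of the 45, so leaving out 1 day 6 array keeps the sign. Leaving out arrays of other days, or changing the filter or the trend, does not alter a day 6 difference. The number called for estradiol against genistein at day 6 (45) was not stable. Of the 45, 4 were called in 20 or more alternatives. The count was 22 with a pseudocount of 1, 8 with no filter on dim probe sets, 27 with the lowest 60% left out, 24 under quantile normalization, 10 for values as deposited, 27 without the eBayes trend, 2 with only the 4 day 6 arrays, 11 without the 3 arrays at another scale, 84 with array quality weights and 0 with the Gapdh ratio as a covariate. Of those counts 4 of the 8 and 9 of the 11 were among the 45. With the replicate block it was 19. It was 54, 39, 36 and 37 with a pseudocount of 64, centring on medians, all 14 arrays (untreated included) and without _x_at and _s_at probe sets. Leaving out 1 array gave 2 to 97. Where an array is left out, its group is 1 array that is assumed to vary like the others. For the day 6 difference against day 2 the count of 0 was 1 without the 3 arrays, and leaving out 1 array gave 0 to 1. Against day 3 the count of 0 was 1 with no filter, 1 without the trend and 10490 for values as deposited, which places the day 3 estradiol arrays on another scale, and leaving out 1 array gave 0 to 1. Fits of only the day 6 arrays between days, and without the 3 arrays against day 3, could not be made. The Gapdh covariate and the medians of lists under alternatives were chosen after seeing the data.

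No gene whose sign turned was called. Under quantile normalization Rpl41 was 0.0062, Rpl38 0.0031, Rps28 0.052 and Rplp2 0.078. Cd4 was -0.42 with the Gapdh covariate and ranged from -0.24 (without genistein replicate 1 of day 6) to 0.55 (without genistein replicate 2) with 1 array left out. Cd8a was 0.10 under quantile normalization, 0.0043 with centring on medians, 0.065 without estradiol replicate 2 and 0.059 without genistein replicate 2 of day 6, with -0.098 the lowest with 1 array left out and -0.15 with the Gapdh covariate. Rag1 was 0.19, 0.019, 0.019 and 0.18 in the same settings, with -0.19 (without genistein replicate 1 of day 6) the lowest. The cause was not tested. The median of the cortical epithelial list was 0.32 to 0.57 and above 0 in all 27 alternatives, and that of the ribosomal list -0.36 to -0.047 and below 0 in all 27. Many of the 27 leave the day 6 differences themselves unchanged.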
